A study of Mus musculus with 24 samples.

Results

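The genes described here encode the cytosolic ribosomal proteins. They are the rows of the deposited RNA-seq table whose name is Rpl, Rps, Rplp or Rpsa with its number or letter, with the row of the highest mean kept where a name was repeated. The rule found 82 of the 16572 gene names in the table, 50 of the large subunit and 32 of the small subunit, each in 1 row whose GRCm38 coordinates were those of the gene's annotation. The rule used names only and no measured value. The 82 genes include 5 paralogs of a ribosomal protein gene, Rpl7l1, Rpl10l, Rpl22l1, Rpl39l and Rps27l.

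The series followed mouse oocytes that were grown in a dish from dissociated ovaries of 7-day-old mice, labelled C57BL/6 Barb and given in the methods as C57 Black6 bred with SV129. The oocytes reached a labelled diameter of 60 to 70 µm, although the methods give a smaller range for class IV in 20% oxygen than in 5%, after 9 days in an atmosphere of 5% oxygen (IV 5% O2) or after 14 days in 20% oxygen (IV 20% O2), with a medium change every 24 hours in the former and every 48 hours in the latter. No allele was altered and no drug was added in these groups. Ribosomal RNA was depleted, strand-specific libraries were made from pooled oocytes in duplicate, and the table gives the 2 libraries of each condition as 1 pooled column, so that no difference below has a replicate check and no p-value is given.

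A ribosome has a small subunit, which reads the messenger RNA, and a large subunit, which joins the amino acids and holds the tunnel through which the new chain leaves. Each subunit is built on ribosomal RNA with one copy of most of its proteins. A growing oocyte makes and stores ribosomes that the early embryo goes on to use. Ribosomal protein genes have left many processed pseudogenes in mammalian genomes, which are intronless copies of the messenger RNA, and a read that matches both the gene and a copy cannot be placed with certainty.

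The sequence of a gene therefore bears on how its reads can be counted. The following stretches of 50 bases come from the middle of the longest coding exon, written 5′ to 3′ on the coding strand from GRCm38. They are shown for 4 genes that were far lower in IV 5% O2, those with the lowest log2 differences after 1 RPM was added to each value, and for 3 genes near or above equal values.
Rps27, chr3:90212964-90213013, minus strand: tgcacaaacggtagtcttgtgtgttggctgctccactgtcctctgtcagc
Rps28, chr17:33823245-33823294, minus strand: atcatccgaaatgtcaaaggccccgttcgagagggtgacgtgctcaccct
Rps29, chr12:69158685-69158734, minus strand: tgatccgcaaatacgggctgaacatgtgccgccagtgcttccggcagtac
Rpl39, chrX:37084011-37084060, minus strand: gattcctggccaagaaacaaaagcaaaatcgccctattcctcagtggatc
Rplp0, chr5:115560847-115560896, plus strand: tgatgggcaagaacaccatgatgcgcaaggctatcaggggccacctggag
Rpl4, chr9:64178307-64178356, plus strand: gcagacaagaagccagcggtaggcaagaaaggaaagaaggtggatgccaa
Rps3, chr7:99479350-99479399, minus strand: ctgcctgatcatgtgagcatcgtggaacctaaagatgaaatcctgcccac
The Rps27 stretch occurred at 3 other places of the genome without a mismatch. The Rpl39 stretch occurred at 4 others, and those of Rps28 and Rps29 at 1 other each. The stretches of Rplp0, Rpl4 and Rps3 occurred at 0 other places. Each is 1 example within its gene, and other examples do not follow this division. Rplp0 has 5 copies of its coding sequence in the genome, with 51.9% of its 50-base exonic windows repeated, and Rps4x, which was near equal in both columns, has 9 copies and 81.7%.

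The steps of the deposited values correspond to a depth of 132185236 mapped reads for IV 5% O2 and 40875357 for IV 20% O2, a ratio of 3.23. These depths were inferred, with the smallest value of a column taken as a gene without reads. Values are given as RPM, the reads of a gene per 1000000 mapped reads, recovered from the deposited log2 values. Where a gene has a pair of values, that of IV 5% O2 stands first. A level of 3 reads was 0.0227 and 0.0734 RPM. Intervals below are exact 95% Clopper-Pearson intervals of the ratio of reads, and they cover counting error only. RPM is a share of a library, so that fewer cells and less RNA per cell cannot be told apart. Oxygen, days in culture, medium changes, the size range in the methods and the making and depth of the libraries differed together between the conditions and cannot be told apart either. Of the 13 oocyte markers in the table, such as Gdf9 and Zp3, none was without reads, and their summed levels were 11387 and 14478 RPM.

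Ribosomal protein transcripts took a smaller share of the library in IV 5% O2. The 82 genes summed to 4024 RPM (531868 reads) and to 9125 RPM (372977 reads), a 2.27-fold difference with a log2 ratio of -1.18 (-1.19 to -1.18). They held 0.485% of the reads counted on genes in IV 5% O2 and 1.25% in IV 20% O2. The large subunit genes summed to 2500.1 and 5506 RPM, and the small subunit genes to 1524 and 3618 RPM.

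Gene by gene, 76 of the 82 were lower in IV 5% O2 and 6 were higher. On log2(RPM + 1), the median difference of IV 5% O2 minus IV 20% O2 was -1.55, whereas the 14704 genes tested, whose 2 values averaged 1 RPM or more, had a median of 0.26. At least 2-fold lower in IV 5% O2 were 54 of the 82 (65.9%), beside 9.22% of all genes tested. At least 2-fold higher were 0 of the 82, beside 18.7% of all genes. The genes at least 4-fold lower numbered 32 (2.58% of all genes), those at least 8-fold lower 11 (1.05%) and those at least 16-fold lower 6 (0.435%). Only 3 of the 82, Rpl7l1, Rpl4 and Rplp0, lay above the median gene, and Rpl7l1 by only 0.01. With a pseudocount of 0.1 RPM, or with no filter on low values, Rpl7l1 fell below it and 2 were left. All 82 passed the minimum of 1 RPM, but Rps27 and Rpl29 did so through IV 20% O2 alone.

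Across all genes, those past 2-fold were higher in IV 5% O2 in 67.0% of cases on the deposited scale, in 45.6% after median-ratio scaling and in 48.6% after quantile normalization. The position of the ribosomal protein genes relative to the median gene stayed between -1.58 and -1.89 on the log2 scale under the 4 other pseudocounts and scalings, beside -1.81 as deposited. The curves of the cumulative distribution show how far the ribosomal protein genes lay from other genes and from the mitochondrial ribosomal proteins, which are encoded in the nucleus and serve the ribosome inside mitochondria.

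**Figure D1:**
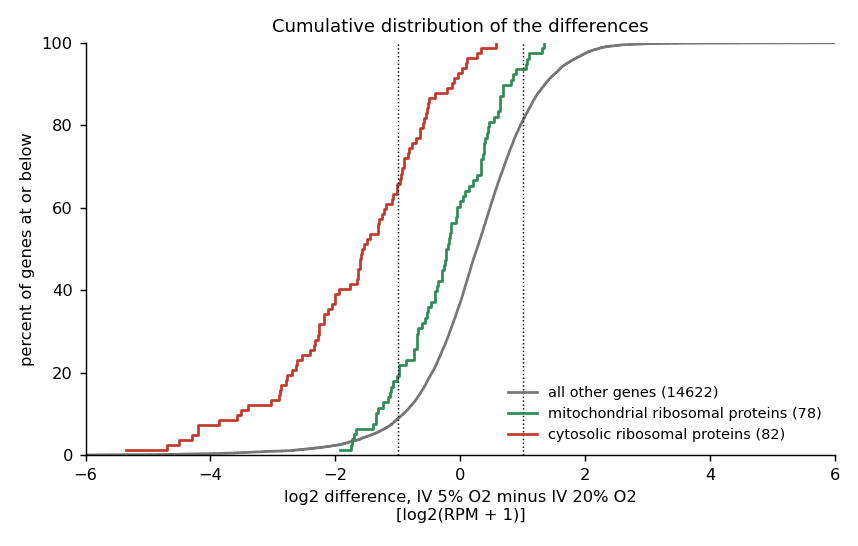
Cumulative distribution of the log2 difference of log2(RPM + 1), IV 5% O2 minus IV 20% O2 (horizontal axis), as the percent of genes at or below each value (vertical axis), for 82 cytosolic and 78 mitochondrial ribosomal protein genes and all genes tested other than the cytosolic ones. Dotted lines mark 2-fold; the cytosolic curve (median -1.55) lies to the left of the mitochondrial curve (median -0.21) and of the other genes.

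The mitochondrial ribosomal proteins had a median of -0.21. At least 2-fold lower in IV 5% O2 were 15 of 78 (19.2%), and 5 (6.41%) were at least 2-fold higher. Over all genes tested, the shares were 9.22% and 18.7%. The large and small cytosolic subunits differed little in their medians, -1.40 for the 50 large subunit genes and -1.63 for the 32 small subunit genes. In both subunits the genes spread from a deep deficit in IV 5% O2 to equal levels.

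**Figure D2:**
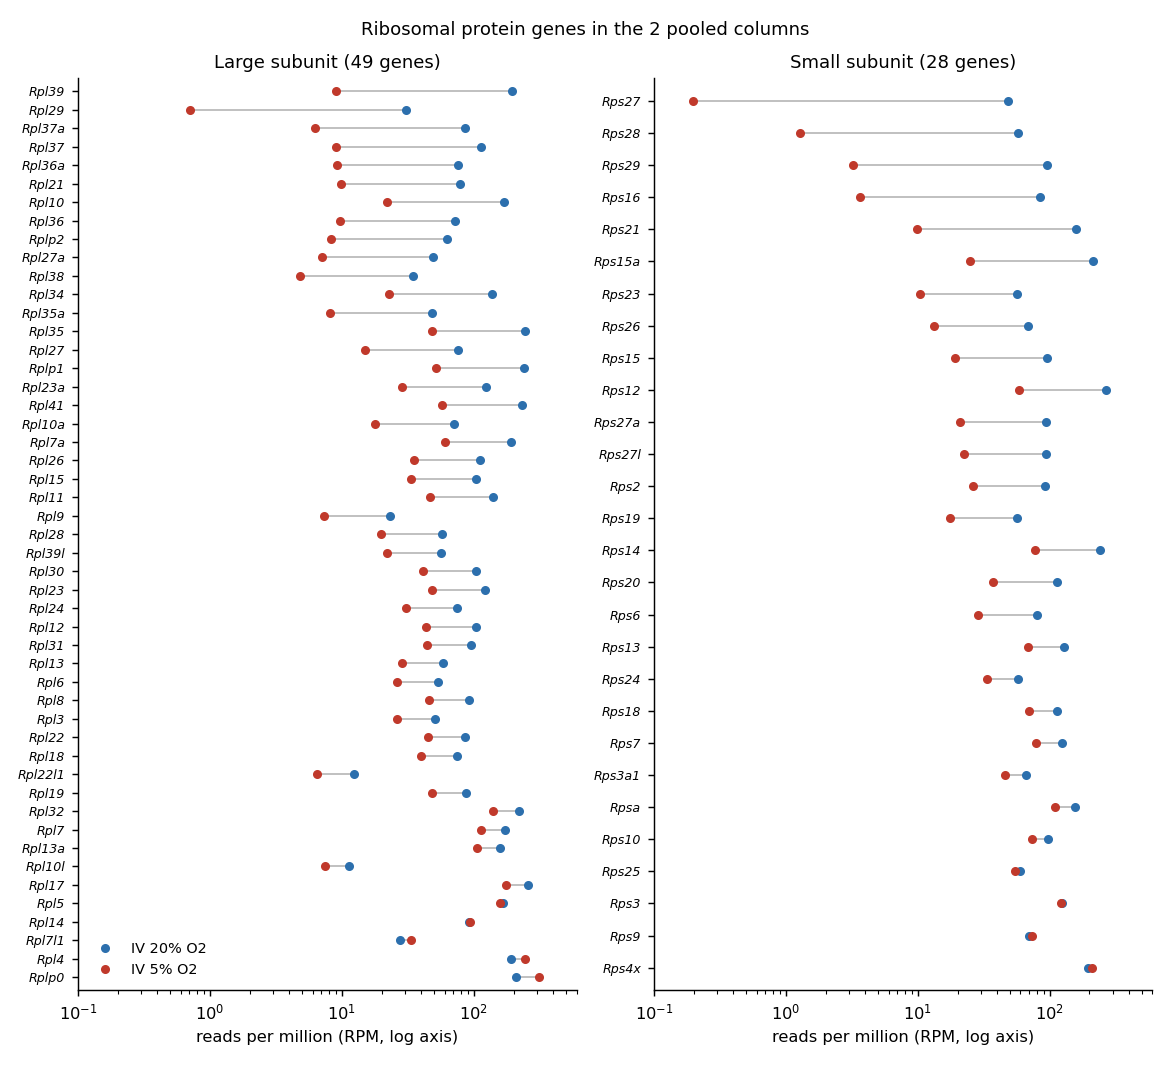
RPM (log axis) of 77 of the 82 genes in IV 5% O2 (red) and IV 20% O2 (blue), in order of their log2 difference within the large (left) and the small subunit (right). Each point is 1 pooled column and has no error bar; the red points range from 0.197 to 310 RPM and the blue points from 11.3 RPM, for the paralog Rpl10l, to 266 RPM.

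The RPM values spanned a narrower range in IV 20% O2. There the 82 genes ranged from 11.3 to 266 RPM with a median of 94.8 RPM, none lay under 10 RPM and 37 reached 100 RPM. In IV 5% O2 they ranged from 0.197 to 310 RPM with a median of 31.9 RPM, 20 lay under 10 RPM and 11 reached 100 RPM. Across the 82 genes, the log2(RPM + 1) values of the columns had a Pearson's r of 0.61 (Spearman's rho 0.64), beside 0.89 (0.89) across the 14622 other genes. These are descriptions across genes of the same pooled libraries, and genes are not independent replicates. The difference had a rho of 0.78 with the level in IV 5% O2 and of 0.11 with that in IV 20% O2. Both levels are part of the difference, and the mitochondrial ribosomal proteins had 0.75 and 0.18.

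With the pseudocount of 1 RPM the 3 lowest differences were in the small subunit, but the order of these genes depended on it. Without a pseudocount Rpl29 of the large subunit (log2 ratio -5.42) lay below Rps29 (-4.87), and with 5 RPM Rpl39 of the large subunit was lowest. Rps27, a zinc-binding protein, had 0.197 RPM (26 reads) and 48.0 RPM (1961 reads). Its log2 difference was -5.35 with the pseudocount, and its log2 ratio without it lay between -8.55 and -7.37. The gene has 4 exons at chr3:90212522-90213651 on the minus strand, and it ranked 23rd from the lowest of all genes tested.

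Rps28, which lies by the path on which the messenger RNA leaves the subunit, had 1.28 and 57.9 RPM. Rps29, a zinc-binding protein of the subunit's head, had 3.25 and 95.04 RPM. Their log2 differences were -4.69 and -4.50. Rps16, whose tail reaches the tRNA in the head of the subunit, had 3.66 and 84.9 RPM, a log2 difference of -4.20. Rps21 followed at -3.86 and Rps15a at -3.04 (24.8 and 211 RPM). Each of these genes was at least 8-fold lower in IV 5% O2.

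The large subunit held 4 genes that were at least 8-fold lower. Rpl39, a short protein of the exit tunnel, had 8.96 and 194 RPM, a log2 difference of -4.29 with a log2 ratio between -4.53 and -4.35. Rpl29 had 0.711 RPM (94 reads) and 30.5 RPM (1247 reads), a difference of -4.20. Rpl37a and Rpl37, a pair of small zinc-binding proteins, had differences of -3.58 (6.30 and 86.3 RPM) and -3.51 (9.03 and 113 RPM).

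At the other end, 6 genes were at or above their IV 20% O2 level. Rplp0, the base of the stalk on which the elongation factors dock, had 310 and 209 RPM, a log2 difference of 0.57 (log2 ratio 0.54 to 0.60). Rpl4, which lines the exit tunnel, had 243 and 192 RPM, a difference of 0.34. Rpl7l1, a paralog of Rpl7 with a part in assembly of the large subunit, had 33.4 and 27.5 RPM, a difference of 0.27.

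Rps4x (211 and 196 RPM), Rps9 (73.8 and 69.3 RPM) and Rpl14 (93.3 and 91.2 RPM) differed by 0.10, 0.09 and 0.03. The counting intervals of Rpl14 and of Rps3 included equal levels. After median-ratio scaling, only Rpl4 and Rplp0 of the 82 remained higher in IV 5% O2, and after quantile normalization Rpl4, Rpl7l1 and Rplp0.

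The differences were also read by site in the ribosome. Of the stalk, Rplp0 stood at 0.57, whereas its partners Rplp1 (52.0 and 240.2 RPM) and Rplp2 (8.27 and 62.7 RPM) had differences of -2.19 and -2.78. Rpl12, which helps to anchor the stalk, stood at -1.23. The ratios of these genes to each other thus differed between the columns.

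The wall of the exit tunnel is formed by Rpl4, Rpl17 and Rpl39, whose differences were 0.34, -0.54 and -4.29. Around the mouth of the tunnel, Rpl19 and Rpl31 had differences of -0.83 and -1.08, and Rpl26, Rpl23a and Rpl35 had -1.63, -2.06 and -2.33. The members of the wall thus spanned most of the range of the 82 genes.

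Near the site of peptide bond formation, Rpl3 and Rpl8 had differences of -0.94 and -0.97 and Rpl10 had -2.88 (22.1 and 168 RPM). Rpl5 and Rpl11 bind the small ribosomal RNA of the large subunit and the p53 regulator Mdm2. Rpl5 had 157 and 168 RPM, a difference of -0.10, and Rpl11 had 46.5 and 139.8 RPM, a difference of -1.57.

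In the small subunit, Rps3 and Rps2, which both line the entry of the messenger RNA, had differences of -0.04 (121 and 125 RPM) and -1.76 (26.3 and 91.6 RPM). Rps23, which reaches the decoding centre, stood at -2.34. By the exit of the messenger RNA, Rps14 and Rps26 had -1.61 and -2.28, and Rps28 had -4.69. In the beak of the subunit, Rps10, Rps27a and Rps12 had -0.41, -2.12 and -2.18. Rps6, the substrate of S6 kinase, had 28.5 and 79.6 RPM (-1.45), and Rpsa, also known as the laminin receptor, had 110.2 and 156 RPM (-0.50).

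Of the other genes at least 2-fold lower in the large subunit, Rpl36a, Rpl21, Rpl36, Rpl27a, Rpl38, Rpl34, Rpl35a and Rpl27 lay between -2.91 and -2.26. Past 2-fold in this subunit were also Rpl41 at -2.01, Rpl10a at -1.94, Rpl7a at -1.65, Rpl15 at -1.61, Rpl9 at -1.54, Rpl28 at -1.50, Rpl30 at -1.31, Rpl23 at -1.30, Rpl24 at -1.26, and Rpl13 and Rpl6 at -1.01. In the small subunit, Rps15 stood at -2.26, Rps19 at -1.65 and Rps20 at -1.59. Under 2-fold were Rpl22, Rpl18, Rpl32, Rpl7 and Rpl13a, between -0.93 and -0.58. Of the small subunit, Rps13, Rps24, Rps18, Rps7, Rps3a1 and Rps25 lay between -0.90 and -0.14.

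Measured per kb of transcript, the ribosomal protein genes stood high among all genes in both columns. Their median was 43.1 RPM per kb in IV 5% O2, at the 87.8th percentile of the genes tested, and 124 RPM per kb in IV 20% O2, at the 97.6th. In the top 10% of genes per kb were 35 of the 82 in IV 5% O2 and 72 in IV 20% O2. The coefficient of variation over the 82 was 98.4% in IV 5% O2 and 72.1% in IV 20% O2 per kb of transcript, but 110% and 128% per kb of coding sequence, where Rpl41, with 75 coding bases, reached 3108 RPM per kb in IV 20% O2. The 90th percentile over the 10th was 13.5 in IV 5% O2 and 7.45 in IV 20% O2 per kb of transcript, and 9.70 and 5.73 per kb of coding sequence.

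Per kb of transcript, the 4 highest in IV 5% O2 were Rpl32, Rplp0, Rpl17 and Rps4x (268 to 216 RPM per kb). In IV 20% O2 the 5 highest were Rps12, Rplp1, Rpl41, Rpl32 and Rps14 (539 to 399 RPM per kb). The 5 lowest in IV 5% O2 were Rps27, Rpl29, Rps16, Rps28 and Rps15a (0.570 to 4.84 RPM per kb), and in IV 20% O2 the paralogs Rpl7l1, Rpl10l and Rpl22l1 with Rps20 and Rpl9 (10.6 to 31.2 RPM per kb). Rpl32 was thus among the highest in both columns. The annotated transcripts used for Rps15a and Rps20 are long, 5130 and 3706 bases for coding lengths of 390 and 357 bases, which lowers their values per kb of transcript.

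The difference followed coding length, counted in bases without the stop codon. All 11 genes with up to 300 coding bases were at least 2-fold lower in IV 5% O2, with a median of -3.58. Of the 28 with over 300 to 450 bases, 23 were at least 2-fold lower (median -2.22), and of the 19 with over 450 to 600 bases, 11. Of the 21 with over 600 to 900 bases, 9 were at least 2-fold lower (median -0.60). The 3 above 900 bases, Rpl3, Rpl4 and Rplp0, had a median of 0.34 and none was 2-fold lower. Across the 82 genes, Spearman's rho of the difference with coding length was 0.62 (Pearson's r with log2 length 0.60), given as a description over genes of the same libraries.

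**Figure D3:**
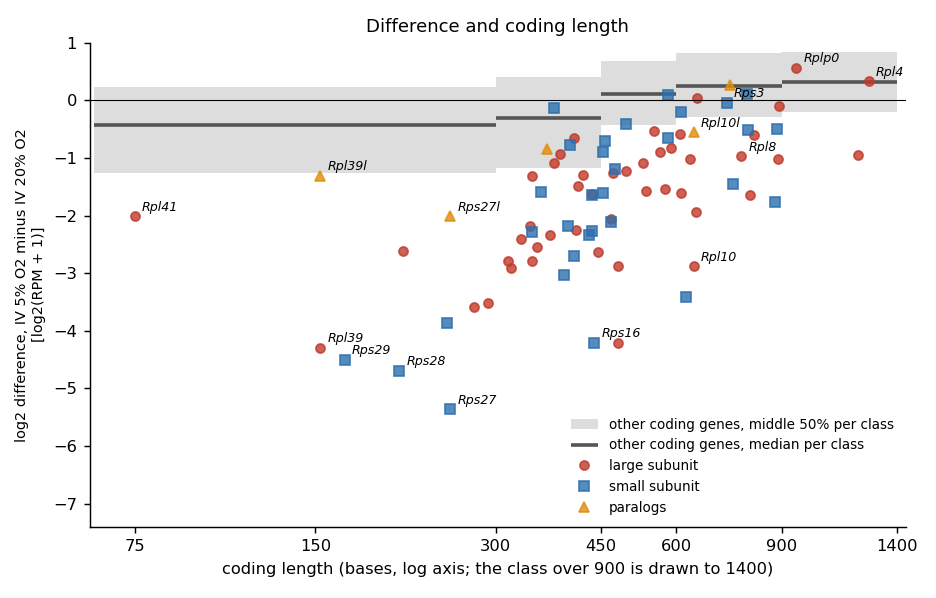
Log2 difference of log2(RPM + 1), IV 5% O2 minus IV 20% O2 (vertical axis), against coding length in bases (log axis) for the 82 genes, by subunit and paralogs. Grey boxes and bars are the middle 50% and the median of other coding genes in each length class; most ribosomal protein genes lie under the boxes at short lengths, whereas Rplp0 and Rpl4 lie within them.

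Other genes also had lower differences where they were short, but less so. Other coding genes had medians of -0.43 up to 300 bases (n = 273), -0.30 from over 300 to 450 (n = 653), 0.12 from over 450 to 600 (n = 756), 0.25 from over 600 to 900 (n = 1736) and 0.32 above 900 bases (n = 9461). The share at least 2-fold lower was 32.6% in their shortest class and 6.42% in their longest. Across all other coding genes, rho with coding length was 0.09. The mitochondrial ribosomal proteins had a rho of 0.67 (n = 78), with medians of -1.01 from over 300 to 450 bases (n = 21) and 0.33 above 900 bases (n = 15). In the same length classes, the cytosolic ribosomal proteins stood below both, except above 900 bases. The part that length plays in library making or counting was not tested.

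The difference was also set beside repeated sequence, with which it moved less closely than with coding length. Across the 82 genes, Spearman's rho was -0.33 with the number of genomic copies, and -0.22 and -0.19 with the share of exonic windows of 100 and 50 bases that occur again in the genome. Of the 82 genes, 78 had at least 1 copy of their coding sequence elsewhere in GRCm38 at 90% identity or more over 80% of its length or more. The copies numbered 1101 in all, with a median of 9.5 a gene and 83 for Rpl21. The 4 genes without such a copy, among them Rpl39l, Rpl8 and Rps3, had a median difference of -0.59. The 21 genes with 1 to 5 copies had a median of -0.93, the 38 with 6 to 15 copies -1.64 and the 19 with over 15 copies -1.76.

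The share of exonic windows of 50 bases that occur again in the genome had a median of 61.1% in the 82 genes and of 1.11% in all genes tested. For windows of 100 bases, the values were 43.7% and 0.606%. Other coding genes with over 75% of their 50-base windows repeated (n = 301) had a median difference of -1.56, and 61.5% were at least 2-fold lower in IV 5% O2. The 30 ribosomal protein genes in that class had a median of -1.71 and 22 were at least 2-fold lower. The 22 with over 50% to 75% had -1.44, the 19 with over 25% to 50% -1.50 and the 10 with up to 25% but above 0 had -0.66. The 5 genes with the highest share of repeated 100-base windows were Rps27, Rpl23a, Rps6, Rpl10 and Rpl10a (96.0% to 92.1%), whose differences ran from -5.35 to -1.45.

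**Figure D4:**
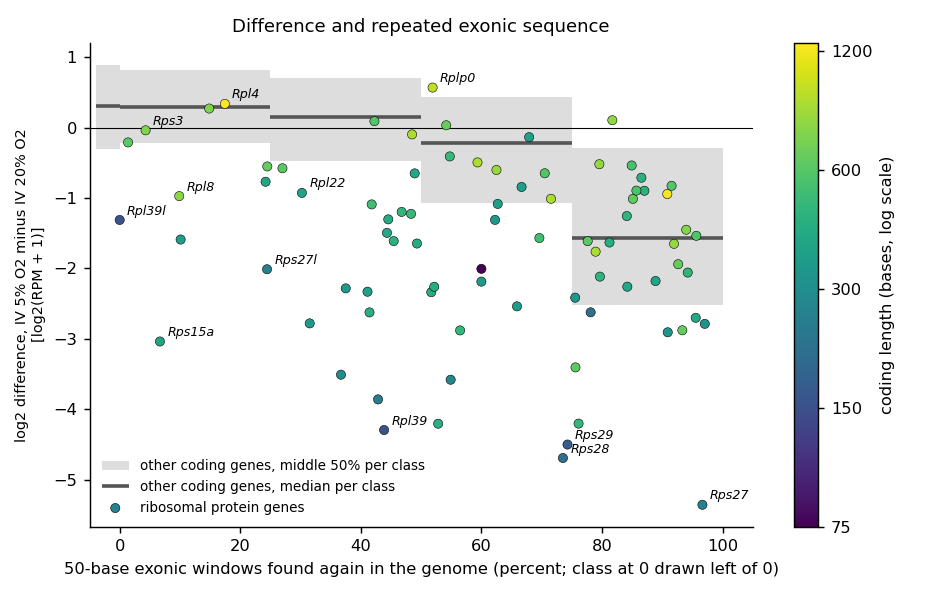
Log2 difference of log2(RPM + 1), IV 5% O2 minus IV 20% O2 (vertical axis), against the percent of 50-base exonic windows that occur again in the genome, for the 82 genes coloured by coding length in bases (log scale). Grey boxes and bars are the middle 50% and the median of other coding genes per class; the medians of other coding genes fall from 0.31 with none repeated to -1.56 above 75%.

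Length and repeats were then crossed. Among other coding genes of up to 450 coding bases, those with at most 10% of 50-base windows repeated (n = 614) had a median of -0.13, and those with over 50% repeated (n = 139) had -1.83. The 22 ribosomal protein genes of the latter kind had a median of -2.38, and 20 of them were at least 2-fold lower. Only 2 ribosomal protein genes were short with few repeats, Rpl39l at -1.31 and Rps15a at -3.04. Of these, Rps15a has 12 copies of its coding sequence in the genome, and its low share of 6.68% comes with the long annotated transcript given above. From over 450 to 900 bases, the 3 ribosomal protein genes with few repeats included Rps3 at -0.04 and Rpl8 at -0.97, beside a median of 0.26 in the 1994 other coding genes of this kind. The 28 with over 50% repeated had a median of -1.13, beside -0.31 in 180 other coding genes. Up to 900 bases, the medians of the ribosomal protein genes lay lower than those of other coding genes of like length and repeats in each of the 5 other classes, which held 3 to 28 ribosomal protein genes. Above 900 bases this was not so, with Rpl4 at 0.34 beside 0.34 in 631 other coding genes, and Rpl3 and Rplp0 at a median of -0.19 beside -0.63 in 263. How reads with several matches were counted is not given in the sources used here, and its part in the differences was not tested.

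Some copies are rows of the table themselves. Of the 7 such rows, 6 were at least 2-fold lower in IV 5% O2, beside 9.22% of all genes tested. The 7 summed to 13.8 and 258 RPM. Among the 6, Rpl36a-ps1 (0 and 9.49 RPM), Rps18-ps5 (0.409 and 11.1 RPM) and Rps18-ps6 (0.0151 and 27.3 RPM) reached the minimum of 1 RPM through IV 20% O2 alone. Rps27rt, whose aligned sequence matches that of Rps27 at 100% identity, had 6.51 and 103.6 RPM. Reads of Rps27 and Rps27rt may be split between the rows, and the pair summed to 6.71 and 152 RPM, a log2 difference of -4.31. Copies of Rpl10 (Rpl10-ps3, -4.11), Rpl35 (Gm2000, -3.55), Rpl36a (Rpl36a-ps1, -3.39) and Rps18 (Rps18-ps5 and Rps18-ps6, -3.10 and -4.80) were likewise lower. Rps18-ps6 had 2 reads in IV 5% O2 and 1114 in IV 20% O2. A further row, Rps18-ps4, spans Rps18-ps6 on the opposite strand and had the same 2 and 1114 reads, and it was not counted again. Adding the rows of its copies moved Rps18 from -0.71 to -1.12, past 2-fold. Rpl9-ps6 was under 1 RPM in both columns and so was not among the genes tested.

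The paralogs allow a comparison within pairs that have the same coding length. Rpl39l, known from the male germ line, differs from Rpl39 at 23 of 153 coding bases, which are in capitals in the GRCm38 coding sequences below. These are printed because the pair has equal length, and Rpl39 has 18 copies in the genome and Rpl39l has 0.
Rpl39, chrX:37082704-37085127, minus strand, exons joined: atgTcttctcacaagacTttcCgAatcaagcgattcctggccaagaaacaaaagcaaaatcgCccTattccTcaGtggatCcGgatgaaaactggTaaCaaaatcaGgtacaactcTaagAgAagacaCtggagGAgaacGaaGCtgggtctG
Rpl39l, chr16:10174310-10174462, plus strand: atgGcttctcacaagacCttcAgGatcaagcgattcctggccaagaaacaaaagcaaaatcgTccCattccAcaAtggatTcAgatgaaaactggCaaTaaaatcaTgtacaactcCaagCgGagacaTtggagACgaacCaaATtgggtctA
Rpl39 had 8.96 and 194 RPM, and Rpl39l had 22.1 and 56.3 RPM. In RPM at equal coding length, Rpl39 was 0.405 times Rpl39l in IV 5% O2 and 3.45 times in IV 20% O2, and per kb of transcript 0.533 and 4.54 times, so that the order of the pair turned. The log2 differences were -4.29 and -1.31.

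Rps27l, which the stress factor p53 is known to induce, differs from Rps27 at 60 of 252 coding bases (76.2% identity), in capitals below.
Rps27, chr3:90212728-90213615, minus strand, exons joined: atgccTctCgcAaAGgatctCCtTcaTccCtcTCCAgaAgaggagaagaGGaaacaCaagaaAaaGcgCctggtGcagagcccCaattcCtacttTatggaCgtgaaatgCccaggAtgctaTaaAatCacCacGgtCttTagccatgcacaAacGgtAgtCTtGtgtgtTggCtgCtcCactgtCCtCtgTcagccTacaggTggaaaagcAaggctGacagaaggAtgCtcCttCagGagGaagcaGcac
Rps27l, chr9:66946175-66949354, plus strand, exons joined: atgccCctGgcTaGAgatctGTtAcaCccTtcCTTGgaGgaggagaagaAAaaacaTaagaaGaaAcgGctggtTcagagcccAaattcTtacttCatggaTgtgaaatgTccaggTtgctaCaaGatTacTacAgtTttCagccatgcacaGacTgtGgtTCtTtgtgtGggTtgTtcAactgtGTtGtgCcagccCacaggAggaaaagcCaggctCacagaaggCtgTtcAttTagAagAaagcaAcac
Rps27l had 22.3 and 92.8 RPM, a log2 difference of -2.01, beside -5.35 for Rps27. Of the 100-base windows, 96.0% were repeated in Rps27 and 0% in Rps27l. Rpl10 and its intronless paralog Rpl10l, with 642 coding bases each and 84.7% identity, had -2.88 and -0.55. In these 3 pairs the paralog lay 2.33 to 3.34 log2 units above its gene, and in each the gene had the higher share of repeated windows. In the other pairs, Rpl22 and Rpl22l1 stood at -0.93 and -0.84, and Rpl7 and Rpl7l1 at -0.60 and 0.27. Of the 50-base windows, 62.5% were repeated in Rpl7 and 14.8% in Rpl7l1, but 30.2% in Rpl22 and 66.7% in Rpl22l1, so that in this pair the paralog had the higher share. As a group, the 5 paralogs had a median of -0.84, and the 77 genes without them -1.59.

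Start sites were looked at because ribosomal protein messenger RNAs are known to begin with a C and a run of pyrimidines, which ties their translation to the mTOR pathway. RefSeq windows on GRCm38.p6, from 250 bases before to 50 after the annotated start, matched 62 of the 82 genes (73 windows). A C followed by 4 pyrimidines stood at the annotated start itself in 17.8% of these windows, beside 2.51% of all 32851 windows, and within 10 bases of it in 54.8%, beside 30.7%. The letters CGGAAG, read on either strand, were in 61.6% of the windows, beside 16.9% of all. AAGATGGC was in 8 of the 73 windows and in 2.75% of all, CACGTG in 8 and in 7.15% of all, and TATAAA in 7 and in 13.6% of all. The following 30 bases run from 10 before to 20 from the annotated start, with the first run of pyrimidines that the search found in capitals, for genes at both ends of the differences. Further runs are left in lower case, and no run was found within 10 bases of the annotated start of Rps28, Rps16, Rps4x, Rpl7l1, Rpl4 or Rplp0. Of the 5 genes shown from the upper end, Rps9 to Rplp0, Rps9 alone thus had a run, and of the 4 from the lower end Rps27 and Rpl39 did.
Rps27, chr3:90213629-90213658, minus strand: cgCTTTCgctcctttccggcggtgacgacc
Rps28, chr17:33824543-33824572, minus strand: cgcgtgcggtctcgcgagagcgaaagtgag
Rpl39, chrX:37085203-37085232, minus strand: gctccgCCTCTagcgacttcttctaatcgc
Rps16, chr7:28350679-28350708, plus strand: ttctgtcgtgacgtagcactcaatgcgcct
Rps9, chr7:3704031-3704060, plus strand: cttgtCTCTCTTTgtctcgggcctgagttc
Rps4x, chrX:102189372-102189401, minus strand: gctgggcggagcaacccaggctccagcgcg
Rpl7l1, chr17:46782637-46782666, minus strand: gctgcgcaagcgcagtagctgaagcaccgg
Rpl4, chr9:64173377-64173406, plus strand: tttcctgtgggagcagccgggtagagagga
Rplp0, chr5:115559457-115559486, plus strand: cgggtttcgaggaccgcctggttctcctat
Genes with the run at the annotated start (n = 13) had a median difference of -2.33, and the 49 others with a window -1.30. With the run within 10 bases (n = 38) the median was -1.63 and without it -1.28, and with CGGAAG (n = 42) it was -1.71 and without it -0.87. For TATAAA the medians with and without were -1.76 and -1.50, for AAGATGGC -1.67 and -1.52, and for CACGTG, in the other direction, -1.07 and -1.55. A match of letters is a description of the window and no evidence of binding or of the start used in oocytes.

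Other genes of ribosome making were described in the same way. As a background for the counts below, 9.22% of all genes tested were at least 2-fold lower and 18.7% at least 2-fold higher. Of the 5 further ribosomal protein genes that the naming rule leaves out, 4 were at least 2-fold lower. Among them were Rps27rt, Fau (-2.56, a ubiquitin-like fusion to a small subunit protein), and Rpl36al (-2.20). The remaining gene, Rack1, a scaffold protein on the small subunit, had 135 and 140.4 RPM (-0.05). The 12 genes of RNA polymerase I transcription had a median of 0.33, from Polr1b at -1.25 to Taf1a at 0.99, with 1 at least 2-fold lower and 0 higher. The 11 small nucleolar RNP and nucleolar proteins had a median of 0.56, from Nop10 at -1.13 to Ncl at 1.05, with 1 lower and 1 higher.

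Of the 27 factors of small subunit assembly, 0 were at least 2-fold lower and 4 were higher (median 0.36), from Tsr1 at -0.79 to Mphosph10 at 1.87 (170 and 46.0 RPM). Of the 28 factors of large subunit assembly, 2 were lower and 3 higher (median 0.42), from Mdn1 at -1.94 to Lsg1 at 1.52. Their medians lay near the median gene at 0.26. These lists also differ from the ribosomal protein genes in length and repeats. The median coding length was 1701 and 1482 bases in the assembly factors of the small and the large subunit, beside 454.5 bases in the 82 genes, and the median share of repeated 50-base windows was 1.33% and 2.40%, beside 61.1%. Of the genes outside the naming rule, Rps27rt and Fau had 90.9% and 87.0% of such windows repeated, and Rack1, with 951 coding bases, had 3.57%. The part of length and repeats in the difference between the lists was not tested.

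The 20 other listed genes whose RNAs are known to begin with a pyrimidine run, among them translation factors and 6 noncoding hosts of small nucleolar RNAs, had a median of 0.02. Of these, 2 were at least 2-fold lower and 3 higher, from the noncoding Gas5 at -1.14 to Eef1d at 1.14 (217 and 97.8 RPM). The 11 tested genes that control ribosomal protein messenger RNA, of mTOR signalling and the binding proteins, had a median of -0.17, with 2 lower and 1 higher, from Eif4ebp2 at -1.41 to Rps6kb2 at 1.05.

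**Figure D5:**
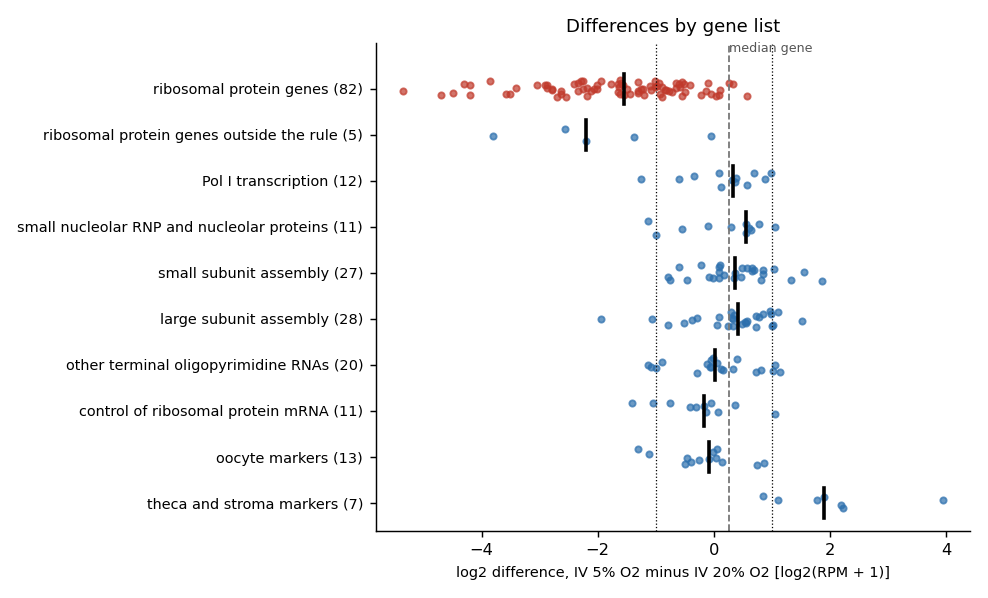
Log2 difference of log2(RPM + 1), IV 5% O2 minus IV 20% O2, of each tested gene (points, spread vertically for view) in the ribosomal protein genes and 9 other lists, with the number of genes in parentheses; black bars are medians, dotted lines 2-fold and the dashed line the median gene at 0.26. The ribosomal protein genes (median -1.55) and those outside the naming rule (median -2.20) lie left of the assembly factors (medians 0.36 and 0.42), which are longer and less repeated by median.

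Markers of other ovarian cells also differed between the columns. The 10 theca and stroma markers in the table, of 18 listed, were higher in IV 5% O2 in 10 of 10 cases. Of the 14704 genes tested, 9203 were higher in IV 5% O2. Col1a2, Pdgfra and Col3a1 averaged under 1 RPM and were not among the 7 markers tested. The 10 summed to 45.3 and 5.48 RPM. In IV 20% O2, 3 of them had no reads. Among them were Cyp11a1 (16.4 and 0.122 RPM), Star (5.18 and 1.86 RPM) and Fn1 (4.94 and 2.30 RPM). The 6 granulosa markers in the table, of 12 listed, summed to 41.3 and 29.8 RPM, and their 4 tested members ran from Nr5a2 at 0.09 to Inhba at 1.05. The 5 macrophage markers of 9 summed to 26.5 and 23.8 RPM, from Csf1r at -0.64 to C1qb at 1.72, and the 4 endothelial markers of 6 ran from Pecam1 at 0.48 to Tek at 1.75. The 1 erythroid marker in the table, of 6 listed, was Alas2 at -0.15. The part of other cells in the ribosomal protein values was not tested. Oocyte markers had a median of -0.08, from Zp2 at -1.31 to Nobox at 0.87. At least 2-fold lower were 2 of 13 (15.4%), beside 9.22% of all genes tested.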

How the data were processed

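RNA-seq libraries of cultured class IV oocytes were trimmed with Trim Galore 0.2.8 and aligned to mm10 with TopHat2 2.0.9, per the submitters' processing notes. The authors deposited log2 values per gene, with 1 pooled column per condition. The methods give quantification in SeqMonk on an oocyte annotation, although most rows have the coordinates of GENCODE genes. The table is named for RPKM, but its values are log2 RPM without division by length. How duplicates were combined and multiply matching reads were counted is not given in the sources used here. Whole reads were recovered from the steps of the values (99.89% and 99.98% whole within 0.05 reads). Here 1 other value column was not used, since its sample is not among those mapped.

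Differences were taken on log2(RPM + 1), which understates the change of low genes, for genes averaging 1 RPM or more, and 2-fold was the call. As no column is a single library, no test was run. Rows were matched to GENCODE M21 by coordinates or, failing that, by name. Of the 16591 rows, 16414 had the coordinates of a gene there and 16576 were matched in all. Repeats were exact matches of exonic windows in GRCm38, and copies were found with BLAST 2.17.0. Python 3.11.15, numpy 2.4.6, pandas 2.3.3 and scipy 1.17.1 were used, and the functions were tested on simulated data. Named genes were the members past 2-fold, the 5 largest and smallest differences, the 5 highest and lowest per kb in each column, paralogs, Rpsa and the stalk, and the extremes of each other list; further members were named by site in the ribosome after their values were seen. Members and lists were chosen with earlier results of these data known. Some members are counted but not reported by name here.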

Additional observations from a re-analysis of the deposited data

How the results depend on the processing

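No paired analysis was possible because each condition is 1 pooled column without replicate numbers, and for the same reason no library could be left out. The 54 ribosomal protein genes at least 2-fold lower in IV 5% O2 became 52 with a pseudocount of 5 RPM, 63 after median-ratio scaling and 61 after quantile normalization, and 0 were 2-fold higher under any alternative run. No gene at least 2-fold lower changed its direction under these alternatives. Only 3 members, Rpl22, Rpl39l and Rps27l, had no repeated 100-base window: all 3 were lower, 2 of them 2-fold, 0 lay above the median gene, and their summed log2 ratio was -1.40. The summed log2 ratio of all members was -1.50 after median-ratio scaling, -1.39 after quantile normalization and -1.41 per kb of exon. With copies listed in the table added to their gene, an alternative chosen after seeing the data, it was -1.22. Per kb of coding sequence, also chosen then, the coefficient of variation was 110% in IV 5% O2 and 128% in IV 20% O2. With 50-base windows the median repeated share was 61.1%. Single genes moved by more than their counting error in 243 of 818 recomputed values.

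Among all genes, the 1356 lower and 2753 higher became 706 and 1202 with a pseudocount of 5 RPM, 2031 and 1700 after median-ratio scaling and 1866 and 1764 after quantile normalization. Median-ratio scaling moved the median gene from 0.26 to -0.04 and turned the macrophage markers from below to above it, and no other list. The smallest count, 26 reads of Rps27, gave the widest interval, 1.17 log2 units.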

Other observations

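The 4 ribosomal protein genes on the X chromosome did not move together. Rpl39, Rpl36a and Rpl10 had log2 differences of -4.29, -2.91 and -2.88, and Rps4x had 0.10. The 7 on chromosome 9 were also spread out, with Rpl4 at 0.34, Rpl14 at 0.03, Rps25 at -0.14, Rpsa at -0.50, Rps27l at -2.01, Rplp1 at -2.19 and Rpl29 at -4.20.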
